A study of Mus musculus with 10 samples.

Results

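Broad H3K4me3 domains were taken as the 5% widest consensus intervals of each sorted nEnd population, and ties in width were ordered by chromosome and start. Oct4+ nEnd had 393 such domains among 7860 intervals, double positive (DP) nEnd 405 among 8101 and Pdgfra+ nEnd 389 among 7781, 1187 of 23742 in all. The narrowest member was 10364 bp wide in Oct4+, 9408 bp in DP and 7951 bp in Pdgfra+ nEnd. The last Oct4+ domain inside the limit held Hirip3 and Ino80e, and the first interval outside was 10359 bp. In DP nEnd the interval just outside held Rybp at 9406 bp, and in Pdgfra+ nEnd it held Nudt14 at 7950 bp. The domains were chosen by their consensus width, so the widths given below describe the members and carry no test.

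nEnd is a mouse endoderm culture made from embryonic stem cells, kept on mouse embryonic fibroblast (MEF) feeders in a medium called RACL. All cells came from 1 untreated reporter line, OCT4-mCherry, and were sorted on mCherry and on PDGFRA stained with APC into cells with OCT4 alone (Oct4+), with both (DP) and with PDGFRA alone (Pdgfra+). The mark was mapped by CUT&Tag, where a transposase tethered by the antibody cuts beside marked nucleosomes, in 3 DP, 4 Oct4+ and 3 Pdgfra+ libraries, 10 in all. The labels give no difference between the groups other than the sort gate and do not tie libraries to separate cultures, so the p-values below measure the spread between these libraries.

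The authors called peaks in each library with SEACR against IgG and joined them into 1 consensus list a population (mm10, which is GRCm38). The lists were rebuilt without a difference by joining overlapping peaks and keeping those found in at least 2 libraries, with replicates 1, 2 and 4 for Oct4+ nEnd. Replicate 3 of Oct4+ nEnd therefore had no part in choosing its domains. The libraries held 3477 to 10545 peaks, their read depth is not given in the files, and a library's median peak summit coverage ran from 22 in Oct4+ replicate 3 to 144 in DP replicate 2. SEACR peaks are unbroken runs of coverage, so a deeper library can give a wider peak. The reporter gene and its partners followed the gates: a peak covered the transcription start site (TSS) of Pou5f1, which encodes OCT4, of Nanog and of Sox2 in all 7 Oct4+ and DP libraries and in none of Pdgfra+ nEnd. The endoderm factor genes Gata6, Sox17 and Foxa2 and the gene Pdgfra had a peak over at least 1 coding start in every DP and Pdgfra+ library, and in 3, 2, 0 and 1 of the 4 Oct4+ libraries. Of 15 fibroblast marker genes, which feeder cells would carry, Twist1 alone had a TSS in an Oct4+ or DP consensus interval and none had one in Pdgfra+ nEnd. In single libraries Twist1 had a peak of 2459 to 3398 bp in DP replicates 1 and 2, Oct4+ replicates 1 and 2 and Pdgfra+ replicate 1, Fbn1 had one of 3050 bp in Pdgfra+ replicate 1, and the other 13, among them Col1a1, Col1a2 and Col3a1, had none.

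H3K4me3 is laid down by SET1 and MLL complexes around active and poised promoters, usually as a short mark over a CpG island. At some genes it spreads over many kilobases, mostly into the transcribed gene, and such broad domains are known to fall on genes that define a cell type. In the blastocyst the epiblast (Epi) keeps the pluripotency factors, while the primitive endoderm (PrE) turns on GATA6, SOX17 and the laminins and type IV collagen of a basement membrane.

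The sequences at the starts of 5 domains are shown because these domains were broad in 2 populations and far shorter or absent in the other. Each runs from 270 bases before to 30 bases after the most upstream protein-coding TSS in the domain (GENCODE M21, sequence from the RefSeq GRCm38.p6 assembly), 5′ to 3′ along the gene, with every CpG in capitals. Esrrb, a naive pluripotency factor, chr12:86469847-86470146, plus strand, lay in a domain of Oct4+ and DP nEnd, and Zfp42, the ESC marker REX1, chr8:43306951-43307250, minus strand, did too. Gata4, chr14:63245242-63245541, minus strand, Foxa2, chr2:148046940-148047239, minus strand, and Pdgfra, chr5:75152022-75152321, plus strand, lay in domains of DP and Pdgfra+ nEnd.
Esrrb: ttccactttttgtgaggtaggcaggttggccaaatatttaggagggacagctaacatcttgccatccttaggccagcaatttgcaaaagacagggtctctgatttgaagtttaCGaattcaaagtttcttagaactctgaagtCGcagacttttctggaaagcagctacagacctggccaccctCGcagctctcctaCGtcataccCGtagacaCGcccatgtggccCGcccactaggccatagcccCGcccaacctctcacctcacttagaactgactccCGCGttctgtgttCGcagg
Zfp42: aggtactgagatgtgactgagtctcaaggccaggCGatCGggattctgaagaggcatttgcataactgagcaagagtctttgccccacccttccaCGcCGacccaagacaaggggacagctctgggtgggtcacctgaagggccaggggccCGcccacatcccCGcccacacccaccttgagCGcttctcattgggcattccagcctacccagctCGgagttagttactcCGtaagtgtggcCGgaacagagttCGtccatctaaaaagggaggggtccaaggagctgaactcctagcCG
Gata4: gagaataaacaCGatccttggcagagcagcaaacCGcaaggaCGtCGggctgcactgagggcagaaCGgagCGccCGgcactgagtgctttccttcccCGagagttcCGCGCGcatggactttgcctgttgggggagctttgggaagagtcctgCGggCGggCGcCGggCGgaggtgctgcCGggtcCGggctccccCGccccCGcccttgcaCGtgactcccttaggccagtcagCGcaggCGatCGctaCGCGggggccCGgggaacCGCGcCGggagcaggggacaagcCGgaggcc
Foxa2: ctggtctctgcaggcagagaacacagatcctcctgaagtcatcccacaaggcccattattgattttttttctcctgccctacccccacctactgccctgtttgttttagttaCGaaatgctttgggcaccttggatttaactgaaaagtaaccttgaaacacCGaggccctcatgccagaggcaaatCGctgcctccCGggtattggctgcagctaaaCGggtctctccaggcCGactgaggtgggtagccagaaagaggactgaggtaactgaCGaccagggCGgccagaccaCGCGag
Pdgfra: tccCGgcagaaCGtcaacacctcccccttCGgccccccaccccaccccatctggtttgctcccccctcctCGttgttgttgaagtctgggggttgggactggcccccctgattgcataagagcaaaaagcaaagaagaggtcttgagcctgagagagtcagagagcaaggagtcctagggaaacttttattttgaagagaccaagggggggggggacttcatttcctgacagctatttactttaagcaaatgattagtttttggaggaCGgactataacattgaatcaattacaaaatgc

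The start of the Pdgfra window, the most upstream in its domain, lay under a peak in 5 libraries. The windows held 11, 12, 31, 10 and 5 CpGs. Over all single-gene broad domains the same window held a median of 20 CpGs for Oct4+ and DP nEnd and of 23 for Pdgfra+ nEnd, against 21 in the other single-gene intervals of each list. The Gata4 window was thus above these medians and the other 4 below.

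Some of the widest Oct4+ domains held miRNA genes and no protein-coding TSS. A domain of 15509 bp at chr7:3209133-3224641 held the miR-290 to miR-295 cluster, the main miRNA cluster of mouse embryonic stem cells, and a domain of 17277 bp at chr6:30164286-30181562 held Mir182, Mir96 and Mir183. Mature sequences are from RefSeq GRCm38.p6 with the seed, bases 2 to 8, in capitals. They are shown so that the seeds within each cluster can be compared.
miR-290a-3p: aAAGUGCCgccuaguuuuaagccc
miR-291a-3p: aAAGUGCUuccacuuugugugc
miR-294-3p: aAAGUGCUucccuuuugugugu
miR-295-3p: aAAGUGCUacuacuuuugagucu
miR-182-5p: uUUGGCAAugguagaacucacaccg
miR-96-5p: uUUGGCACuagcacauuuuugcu
miR-183-5p: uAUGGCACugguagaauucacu

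miR-291a-3p, miR-294-3p and miR-295-3p carried the same seed, and the other 4 shown each had a seed of their own. The miR-290 to miR-295 cluster had a peak of 15509, 7752, 6140 and 10181 bp in Oct4+ replicates 1 to 4 and of 8176, 6998 and 8134 bp in DP replicates 1 to 3. No Pdgfra+ library had a peak there. The Mir182 cluster measured 17268, 15258, 7554 and 17261 bp in Oct4+ nEnd, 15995, 13711 and 7969 bp in DP nEnd and 9500, 4844 and 6093 bp in Pdgfra+ nEnd. The locus was broad in all 3 lists and above the 5% limit of each of the 10 libraries, but the Pdgfra+ domain, chr6:30168397-30177896, held Mir96 and Mir183 and did not reach Mir182.

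Pluripotency genes were among the Oct4+ domains. Of 31 Epi and naive pluripotency genes with a TSS in an Oct4+ consensus interval, 16 lay in a broad domain, where 6.27% of all marked protein-coding genes did. Among them were Esrrb, Etv5, Klf2, Nanog, Nodal, Pou5f1, Sall4, Sox2, Tbx3, Tdgf1, Tet1, Tet2 and Zfp42. In DP nEnd 10 of 21 marked Epi genes were in a broad domain (7.13% of all marked genes) and in Pdgfra+ nEnd 4 of 11 (6.74% of all), namely Klf4, Mycn, Sall4 and Tbx3. The PrE genes ran the other way, with 1 of 13 marked genes in a broad Oct4+ domain, 15 of 28 in a DP domain and 15 of 26 in a Pdgfra+ domain. Both endoderm sets held Col4a1, Col4a2, Fgfr2, Foxa2, Gata4, Gata6, Lama1, Lamb1, Lamc1, Pdgfra, Runx1, Serpinh1, Sox17 and Sparc, DP nEnd held Amn besides, and Pdgfra+ nEnd Sox7. The single Oct4+ one, Fgfr2, which encodes an FGF receptor, shared its domain with Ctbp2. No gene of a trophectoderm list was in a broad domain, though 4, 8 and 5 of 16 had a TSS in an interval of Oct4+, DP and Pdgfra+ nEnd, and no Hox gene was, of 4, 6 and 6 marked. Of a mesoderm list none was either, of 2, 4 and 3 marked, and of a neural list Sox21 was in Pdgfra+ nEnd, of 3 marked genes in each population. The lists were drawn up with results of these data known, and these counts describe the chosen domains.

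The widest domain of the series lay inside Esrrb, at chr12:86465616-86509859 (44244 bp). It held 1 TSS, which is 109000 bp downstream of the start of the gene record, and it covered 27.6% of the gene. The widest peak in it was 44034, 27241, 14176 and 27354 bp in Oct4+ replicates 1 to 4 and 18505, 15022 and 9070 bp in DP replicates 1 to 3. In Pdgfra+ nEnd there was no peak. The lowest Oct4+ value, in replicate 3, lay within the DP range.

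Tet1, which oxidises 5-methylcytosine, had a domain of 32433 bp at chr10:62876920-62909352. Its widest peak measured 30753, 19337, 10183 and 30490 bp in Oct4+ nEnd, 9470, 16527 and 6555 bp in DP nEnd and 5155, 2132 and 4055 bp in Pdgfra+ nEnd. Each Oct4+ value was above each Pdgfra+ value, with DP nEnd between and overlapping Oct4+ nEnd. Epha2, an ephrin receptor, was 40212 bp wide in the Oct4+ list because of replicate 1. The Oct4+ libraries gave 40212, 10784, 8173 and 15573 bp, the DP libraries 10857, 13147 and 10857 bp and the Pdgfra+ libraries 6581, 2910 and 4091 bp. Rbpms, an RNA-binding protein gene, likewise took its 38405 bp from replicate 1, where the others gave 19696, 5872 and 11329 bp.

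The core factors were broad in Oct4+ nEnd and shorter in DP nEnd. Peaks over the Pou5f1 TSS measured 19575, 10438, 8924 and 10892 bp in Oct4+ nEnd and 9490, 8915 and 8109 bp in DP nEnd. Over the Nanog TSS they measured 15214, 13584, 5891 and 7916 bp, and in DP nEnd 7905, 6452 and 5432 bp. Over the Sox2 TSS they measured 11419, 10456, 7432 and 10125 bp, and in DP nEnd 3801, 8747 and 4077 bp. For each of the 3 genes the ranges of the 2 populations overlapped, and the Nanog and Sox2 domains covered the whole gene. Zfp42 had 17189, 14278, 7455 and 16923 bp in Oct4+ nEnd, 9967, 6230 and 0 bp (no peak) in DP nEnd and 3398, 0 and 0 bp in Pdgfra+ nEnd. Pou5f1 shared its domain with Tcf19 and Cchcr1.

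Several PrE genes were among the DP and Pdgfra+ domains. The gene for laminin gamma 1, Lamc1, had the third widest Pdgfra+ domain, 24259 bp at chr1:153310629-153334887. Its peaks, here as below the widest that meets the domain unless said to be over a TSS, measured 24259, 5394 and 11713 bp in Pdgfra+ replicates 1 to 3, 19911, 19845 and 11416 bp in DP nEnd and 5000, 4185, 3431 and 5076 bp in Oct4+ nEnd. Every value in the endoderm populations was above every Oct4+ value. Gata4 had 19417, 4325 and 12828 bp in Pdgfra+ nEnd, 11596, 17759 and 10102 bp in DP nEnd and a single peak, of 3317 bp in replicate 1, in Oct4+ nEnd. Its domain, too, lay over an internal TSS, 26421 bp downstream of the start of the gene record. Foxa2 measured 13002, 4686 and 11206 bp in Pdgfra+ nEnd (in replicate 2 the peak over the TSS was shorter, 4062 bp) and 13543, 13300 and 12499 bp in DP nEnd, with no peak in any Oct4+ library. For the laminin genes Lamb1 and Lama1, for Pdgfra and for Foxa2 and Gata4, the Pdgfra+ replicate 2 value was the lowest of the endoderm libraries.

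Sox17 was 11740, 2384 and 5014 bp in Pdgfra+ nEnd, 10941, 12118 and 9694 bp in DP nEnd and 3721, 3378, 0 and 0 bp in Oct4+ nEnd, so that Pdgfra+ replicate 2 lay within the Oct4+ range. Col4a1 and Col4a2, the divergently transcribed genes of type IV collagen, shared a domain of 17932, 9792 and 12937 bp in Pdgfra+ nEnd, 15070, 16776 and 14761 bp in DP nEnd and 4384, 3329, 0 and 0 bp in Oct4+ nEnd. Here the endoderm libraries and the Oct4+ libraries did not overlap. Gata6 measured 13274, 6632 and 11141 bp in Pdgfra+ nEnd and 13031, 12496 and 10369 bp in DP nEnd. In Oct4+ nEnd it kept 7317, 4763, 4536 and 0 bp, above the lowest Pdgfra+ value in replicate 1.

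**Figure D1:**
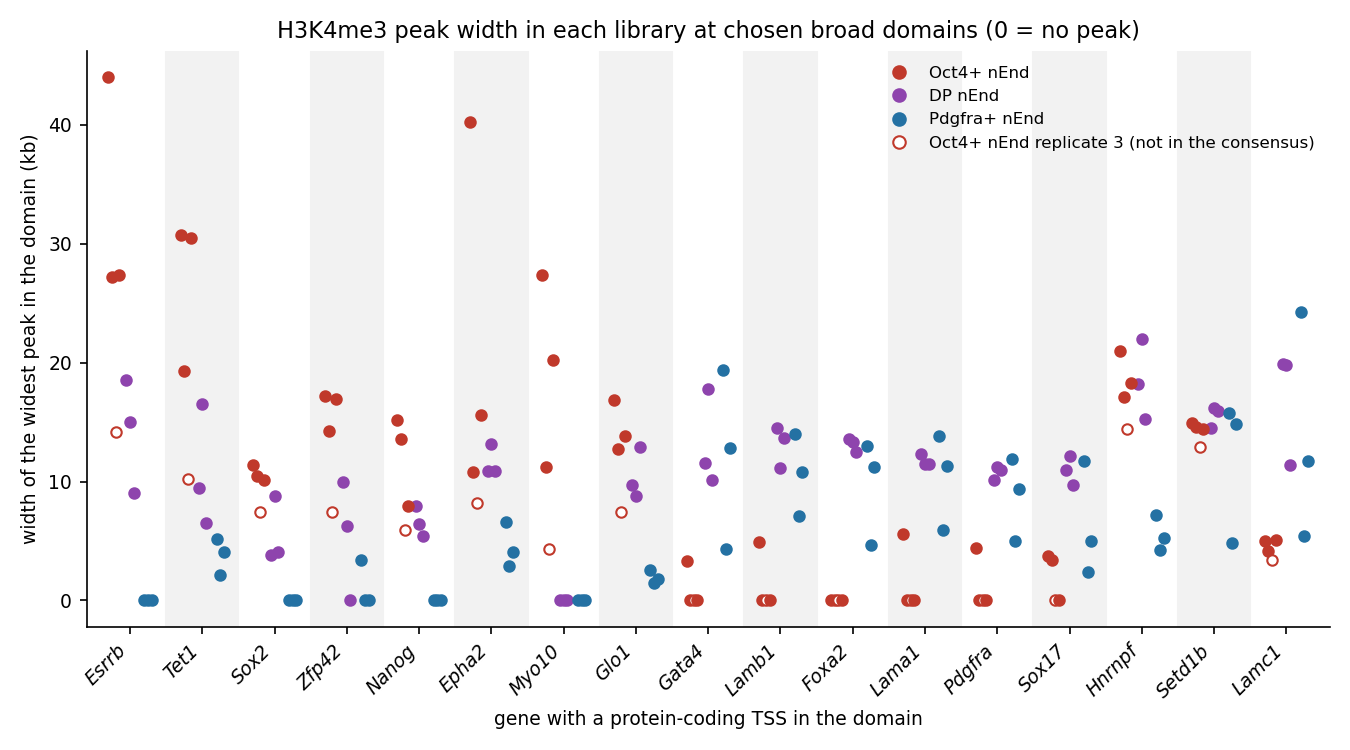
Width in kb (y axis) of the widest H3K4me3 peak in each library at 17 broad domains (x axis), with 1 point a library, red for Oct4+, purple for DP and blue for Pdgfra+ nEnd. The open point is Oct4+ replicate 3, which had no part in the choice, and 0 means no peak. Esrrb falls from 44034 bp in Oct4+ replicate 1 to no peak in Pdgfra+ nEnd, Foxa2 has a peak in the DP and Pdgfra+ libraries alone, and Setd1b is broad in all 3 populations.

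Because a consensus interval is as wide as its joined peaks, single libraries could set a member's width. Oct4+ replicate 1 had the widest peak in 79.9% of the Oct4+ domains, DP replicate 2 in 60.7% of the DP domains and Pdgfra+ replicate 1 in 97.4% of the Pdgfra+ domains. Among the members, 155 Oct4+ (39.4%), 161 DP (39.8%) and 95 Pdgfra+ domains (24.4%) were also in the 5% widest peaks of each of the 3 libraries behind the list. Esrrb, Tet1, Gata4, Foxa2 and Lamc1 were among them, while Arhgap23, at 22920 bp in Pdgfra+ nEnd, was broad in replicate 1 alone (22920, 3629 and 5243 bp).

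The count of lineage genes was therefore repeated in the 5% widest peaks of each library on its own, 173 to 527 peaks a library. All of them but Oct4+ replicate 3 had helped to choose the domains. The counts show how the libraries differ and are no independent check. Epi genes numbered 18, 18, 13 and 13 in Oct4+ replicates 1 to 4 (16.3 ± 2.89 over replicates 1, 2 and 4, SD, n = 3), 11, 10 and 8 in DP nEnd (9.67 ± 1.53, SD, n = 3) and 4 in each Pdgfra+ library. PrE genes numbered 1, 1, 0 and 1 in Oct4+ nEnd, 18, 15 and 16 in DP nEnd (16.3 ± 1.53, SD, n = 3) and 15, 14 and 14 in Pdgfra+ nEnd (14.3 ± 0.577, SD, n = 3). The populations did not overlap in Epi genes, and DP and Pdgfra+ nEnd met at 15 PrE genes. DP nEnd held both classes.

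**Figure D2:**
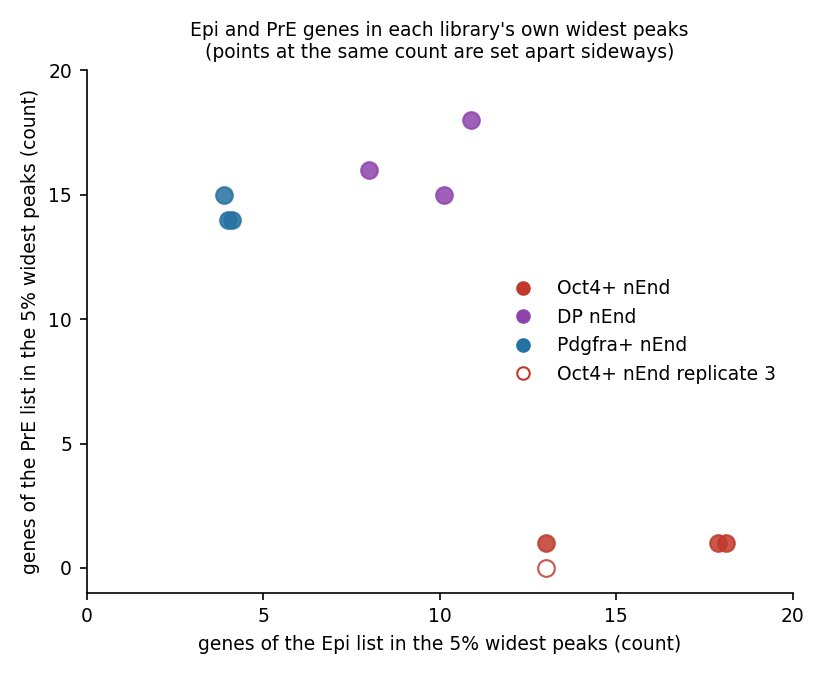
Number of Epi list genes (x axis) against PrE list genes (y axis) with a TSS in the 5% widest peaks of each of the 10 libraries, red for Oct4+, purple for DP and blue for Pdgfra+ nEnd. The Oct4+ libraries sit at 13 to 18 Epi and 0 or 1 PrE genes, the DP libraries at 8 to 11 and 15 to 18, and the Pdgfra+ libraries at 4 and 14 or 15.

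Oct4+ replicate 3 gave a view of the Oct4+ domains that the rule had not used, although it held the fewest peaks (3477, of which 173 made up its own widest 5%). Of the 393 Oct4+ domains 349 had a peak in it, and 130 (33.1%) met its widest peaks, against 42 of the 7467 other Oct4+ intervals (0.563%). The DP domains met them in 99 of 405 cases (24.4%) and the Pdgfra+ domains did so in 56 of 389 (14.4%). The share rose with the number of the other Oct4+ libraries in which a domain was broad, from 11 of 116 (9.48%) with 1 library and 29 of 116 (25%) with 2 to 90 of 155 (58.1%) with all 3. Of the Oct4+ domains missing from the DP list, 4 of 43 were broad in replicate 3, and of those missing from the Pdgfra+ list 19 of 79 were. Domains that rested on 1 library were thus seldom broad in the library left aside.

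The 3 sets were joined into 768 loci by overlap of at least 1 bp. Of these, 97 (12.6%, and 7.79% without Pdgfra+ replicate 1) were broad in all 3 populations, 93 in Oct4+ and DP nEnd, 105 in DP and Pdgfra+ nEnd and 16 in Oct4+ and Pdgfra+ nEnd. A further 186 were broad in Oct4+ nEnd alone, 104 in DP nEnd alone and 167 in Pdgfra+ nEnd alone. Among the loci broad in all 3 were those of Smad7, an inhibitor of TGF-beta signalling (32312 bp in Oct4+ nEnd), of Ctbp2 and Fgfr2, of Kdm6b with 3 neighbours, of Trim71, a stem cell RNA-binding factor, and a cluster with Midn, Cbarp and Atp5d. Setd1b encodes a catalytic subunit of a SET1 H3K4 methyltransferase. Its widest peak was 14911, 14585, 12871 and 14453 bp in Oct4+ nEnd, 14531, 16195 and 15915 bp in DP nEnd and 15734, 4865 and 14802 bp in Pdgfra+ nEnd, where replicate 2 stood apart.

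An Oct4+ domain was called missing from another population where no consensus interval overlapped it, narrow where the widest overlapping interval was at or below that list's median width, broad where it met one of the 5% widest and intermediate otherwise. Of the Oct4+ domains 191 were broad in DP nEnd, 148 intermediate, 11 narrow and 43 missing, and 29 of the missing ones held no protein-coding TSS. In Pdgfra+ nEnd 114 were broad, 163 intermediate, 37 narrow and 79 missing. In the Pdgfra+ list 29.5% of the Oct4+ domains were thus missing or narrow, and in the DP list 13.7%. Of the missing ones, 50 of 79 and 34 of 43 had no peak in any library of that population. For no pair, here or below, was the missing or narrow share computed over the other intervals. It is therefore not shown to be particular to broad domains.

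Beside the pluripotency genes, the widest Oct4+ domains missing from Pdgfra+ nEnd held Myo10, Abcc4, H2-M5 and Tdh. Myo10, an unconventional myosin gene, had a domain of 27372 bp over internal starts, with 27372, 11231, 4288 and 20264 bp in Oct4+ nEnd and no peak in any other library. Tdh, the threonine dehydrogenase of mouse embryonic stem cells, had 20324, 13586, 5904 and 15044 bp in Oct4+ nEnd, 0, 12962 and 5330 bp in DP nEnd and no peak in Pdgfra+ nEnd. Rbpj, the DNA-binding factor of Notch signalling, had 19068, 10695, 6727 and 11187 bp over 1 TSS 89682 bp inside the gene, and in the other populations a peak of 8472 bp in DP replicate 2 alone. All 3 domains were on in every Oct4+ library and weakest in replicate 3.

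The widest Oct4+ domains that were narrow in Pdgfra+ nEnd held Adprh with Cd80, then Zfp532, Mtf2, Ssr2 and Glo1. Glo1, which encodes glyoxalase, measured 16835, 12740, 7453 and 13854 bp in Oct4+ nEnd, 9689, 8795 and 12919 bp in DP nEnd and 2558, 1444 and 1817 bp in Pdgfra+ nEnd. The Glo1 domain thus met a peak in all 10 libraries, at very different lengths. Mtf2, a Polycomb-associated factor, measured 22621, 9171, 7031 and 11062 bp in Oct4+ nEnd, 4503, 7958 and 3281 bp in DP nEnd and 3202, 0 and 1729 bp in Pdgfra+ nEnd.

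Among the Oct4+ domains narrow in DP nEnd, that of Zc3h11a, Zbed6 and Gm38394 measured 16715, 5262, 8196 and 9890 bp in Oct4+ nEnd and 4035, 3299 and 2921 bp in DP nEnd. Ttc39b had 15375, 4485, 3136 and 6411 bp against 4405, 3700 and 4153 bp, so its width came from 1 library. Fam169a and Nat14 with Zfp628 completed the named genes of this class.

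Of the 6 widest DP domains, 4 held more than 1 gene. The first held Midn, Cbarp and Atp5d (28486 bp), with 10859, 28383 and 18743 bp in the DP libraries, 27865, 7735, 7931 and 23606 bp in Oct4+ nEnd and 20375, 5591 and 7646 bp in Pdgfra+ nEnd. It was broad in all 3 lists, and each population had at least 1 library far below its widest. The next held Eif4enif1 and Sfi1 (23237, 14825 and 3564 bp in DP nEnd), and beside it lay a domain of 27169 bp at chr11:3122347-3149515 with no protein-coding TSS that held the pseudogene Pisd-ps1, where reads may be shared with other copies. Its peaks were 26617, 16439 and 3668 bp in DP nEnd and 26944, 1092 and 3757 bp in Pdgfra+ nEnd, so each list took its width from part of its libraries. Hnrnpf, an RNA-binding protein gene, was broad over a single gene: it had 18232, 22006 and 15292 bp in DP nEnd, 20963, 17126, 14460 and 18277 bp in Oct4+ nEnd and 7194, 4213 and 5222 bp in Pdgfra+ nEnd. Each DP and Oct4+ value was above each Pdgfra+ value. The cluster of Rpl7a, Med22, Surf1, Surf2 and Surf6 was 21550 bp wide in DP nEnd.

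DP domains were missing or narrow in 10.1% of cases in Oct4+ nEnd and 9.88% in Pdgfra+ nEnd. The first share was 18.5% and 19.3% without Oct4+ replicates 1 and 2, and the second 20.2% and 15.6% without Pdgfra+ replicates 1 and 3. Both shares fell with the 25th percentile as the limit for narrow. Narrow domains then numbered 8 in Oct4+ nEnd and 3 in Pdgfra+ nEnd. In Oct4+ nEnd 195 were broad, 169 intermediate, 26 narrow and 15 missing, and in Pdgfra+ nEnd 205, 160, 19 and 21. The 5 widest missing from the Oct4+ list were those of Gata4, Lamb1, Foxa2, Lama1 and Pdgfra, all PrE genes. All but Foxa2 had a peak over a TSS in Oct4+ replicate 1 and in no other Oct4+ library. These peaks measured 3317 bp at Gata4, 4931 bp at Lamb1, 5578 bp at Lama1 and 4427 bp at Pdgfra. The 5 widest missing from Pdgfra+ nEnd began with Esrrb and included Ltbp4, Slc7a7 and Tdh, of which Ltbp4 and Slc7a7 had a peak in Pdgfra+ replicate 1 (10204 and 9566 bp) and in no other Pdgfra+ library. Amn, an endocytic receptor subunit of visceral endoderm, had peaks of 8148, 8548 and 7087 bp in DP nEnd and none in the other 7 libraries. Mpg with Rhbdf1 was broad in DP nEnd (9419, 12533 and 8158 bp) and narrow in both others, at 3875, 2529, 0 and 2483 bp in Oct4+ nEnd and 3713, 2736 and 3358 bp in Pdgfra+ nEnd.

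Of the Pdgfra+ domains, 117 were broad in Oct4+ nEnd, 191 intermediate, 41 narrow and 40 missing, and in DP nEnd 206, 164, 18 and 1. The narrow and missing share was 20.8% in Oct4+ nEnd, 35.2% and 32.1% without Oct4+ replicates 1 and 2, and 4.88% in DP nEnd, 0.0% without Pdgfra+ replicate 1. The domain missing from the DP list held Pdpn, podoplanin, with 9000, 0 and 6889 bp in Pdgfra+ nEnd, a peak of 7267 bp in DP replicate 2 and none in Oct4+ nEnd. Lamb1, Lama1 and Foxa2 led the domains missing from Oct4+ nEnd together with Gata4 and with Myl3 and Pth1r. The peaks at Pth1r, a parathyroid hormone receptor gene of parietal endoderm, and Myl3 were 14510, 8211 and 10038 bp in Pdgfra+ nEnd, 10358, 10173 and 9396 bp in DP nEnd and 4337, 0, 0 and 0 bp in Oct4+ nEnd. Mpv17l2 with Rab3a, Arl6ip4 with Ogfod2, Sox17 and the collagen pair led the domains narrow in Oct4+ nEnd. Irs1, an insulin receptor substrate, was broad in Pdgfra+ nEnd alone, at 11702, 2926 and 10147 bp, against 4262 to 4755 bp in DP nEnd and 3486, 2355, 0 and 0 bp in Oct4+ nEnd. The widest Pdgfra+ domains narrow in DP nEnd, led by Cep68 (10960, 1897 and 3261 bp) and Dctpp1 (9844, 1490 and 0 bp), were each broad in Pdgfra+ replicate 1 alone.

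**Figure D3:**
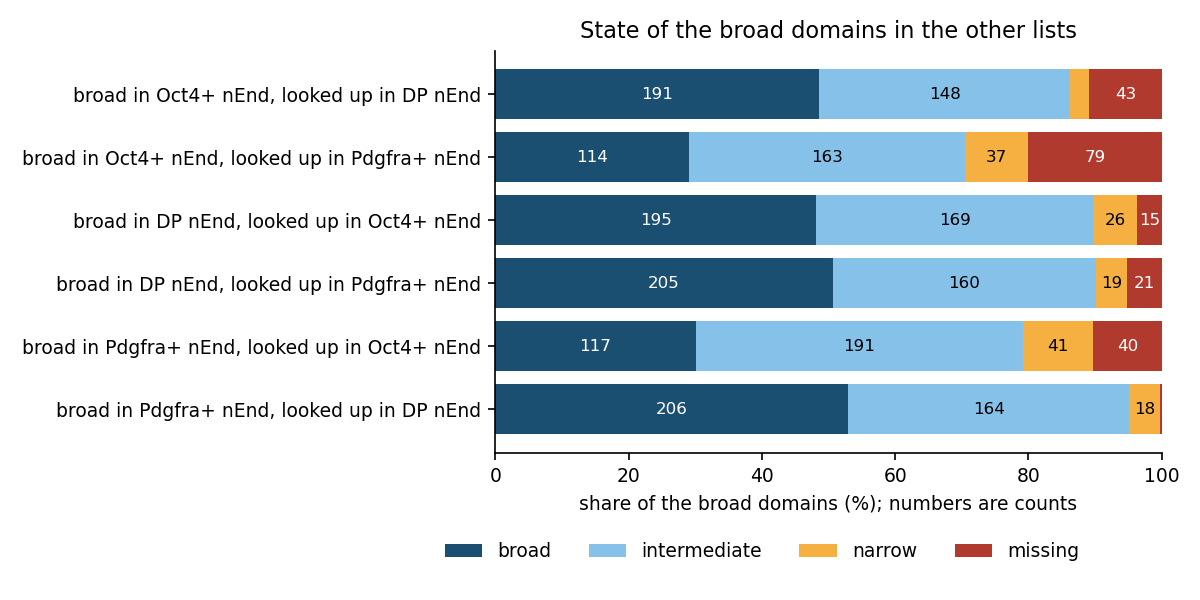
Share of each set of broad domains (x axis, percent, with counts) that was broad, intermediate, narrow or missing in another population's list, for the 6 ordered pairs (y axis). The DP list lacked 1 Pdgfra+ domain, which had a peak in a DP library, and 43 Oct4+ domains, 34 of them without a peak in any DP library. The Pdgfra+ list lacked 79 Oct4+ domains, 50 of them without a peak in any Pdgfra+ library.

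Lengths could be tested where the populations compared were not the one that chose the domains. For each pair of populations the covered length of every locus with a peak in all 6 libraries (replicates 1, 2 and 4 for Oct4+ nEnd) was compared by limma on the log2 scale, after subtracting each library's median, with Benjamini-Hochberg adjustment over all loci and a threshold of 0.05. A difference of 1 is then a doubling of length relative to the library's other peaks. The 3 comparisons share libraries and are not independent of each other.

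The Oct4+ domains were compared between DP and Pdgfra+ nEnd, which had not chosen them. In 284 loci all 6 libraries had a peak, and 20 of those (7.04%) were longer in DP nEnd and 0 in Pdgfra+ nEnd, where 0.423% of all 6140 loci tested were called, all longer in DP nEnd. Without DP replicate 1 4.23% of the domains were called, without Pdgfra+ replicate 3 4.21%, and with loci kept that lacked a peak in some libraries 2.22% (8 of 361). Of all loci 0.228%, 0.227% and 0.0931% were called under these settings. At an unadjusted p under 0.05 there were 78 among the domains and 517 among all loci. The median difference was 0.23 over the domains and -0.01 over all loci. Klf3, a Krüppel-like repressor, was longer in DP nEnd by 1.93 (SE 0.19, limma adjusted p = 3.07e-05). Its covered lengths were 19110, 18410 and 12269 bp in DP nEnd and 5062, 2234 and 3012 bp in Pdgfra+ nEnd. Glo1 differed by 2.05 (SE 0.22, limma adjusted p = 3.67e-05) and C77080 by 1.92 (SE 0.22, limma adjusted p = 9.78e-05). In these 3 loci every DP library was above every Pdgfra+ library. Rarg, the retinoic acid receptor gamma gene, Phc1, a Polycomb subunit gene, Epha2, Klf9, Tet1, Ctbp2 with Fgfr2 and the syndecan gene Sdc4 were also longer in DP nEnd. Of the domains that leaned towards Pdgfra+ nEnd, Pigyl came first, with a difference of -0.42 and a limma adjusted p of 0.616.

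The DP domains were compared between Oct4+ and Pdgfra+ nEnd. Of 399 loci 322 could be tested, and 91 (28.3%) were called, 65 longer in Oct4+ nEnd and 26 in Pdgfra+ nEnd, where 10.7% of all 3918 loci were called (7.2% longer in Oct4+ nEnd and 3.52% in Pdgfra+ nEnd). The median difference was 0.13 over the domains and -0.01 over all loci. With quantile normalisation the split was 52 to 44 and the median of the domains was -0.07, and without subtracting the medians, which shifted all loci by 0.33, the split was 57 to 1. The direction of the set as a whole thus changed with the scaling, while the count of differing domains was 58 to 96 under these settings.

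The largest differences were at Adprh with Cd80, longer in Oct4+ nEnd by 2.85 (SE 0.20, limma adjusted p = 2.09e-08), at Tet1, by 2.68 (SE 0.19, limma adjusted p = 2.09e-08), and at Glo1, by 2.59 (SE 0.19, limma adjusted p = 2.09e-08). Covered lengths at Tet1 were 30753, 25488 and 30490 bp in Oct4+ replicates 1, 2 and 4 and 5155, 2132 and 4055 bp in Pdgfra+ nEnd, with no overlap. Mybl2, a cell cycle factor, Kat6b, a histone acetyltransferase gene, Klf9, Cdh1, which encodes E-cadherin, and Tbx3 were also longer in Oct4+ nEnd. In the other direction Arhgef17 differed by -1.42 (SE 0.20, limma adjusted p = 8.73e-05). Zyx, which encodes the focal adhesion protein zyxin, differed by -1.38 (SE 0.20, limma adjusted p = 1.1e-04) and Lamc1 by -1.63 (SE 0.25, limma adjusted p = 2.22e-04). Actg1, a cytoplasmic actin gene, Socs3, Akt1 with Zbtb42 and Sox4 were among the other 23 longer in Pdgfra+ nEnd.

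The Pdgfra+ domains were compared between Oct4+ and DP nEnd. Of 384 loci 301 could be tested, and 17 (5.65%) were called, 4 longer in Oct4+ nEnd and 13 in DP nEnd, where 2.59% of all 4360 loci were called (1.7% longer in Oct4+ nEnd and 0.894% in DP nEnd). The share was 3.32% without DP replicate 2, against 1.97% of all loci. With loci kept that lacked a peak in some libraries it was 8.85% (34 of 384), about that of all 9101 loci (8.82%). The median difference was -0.06 over the domains and 0.02 over all loci, and quantile normalisation gave 1 to 20 over the domains and 48 to 50 over all loci, against 74 to 39. Lamc1 had the smallest p, longer in DP nEnd with a difference of -1.73 (SE 0.19, limma adjusted p = 1.27e-04). Its covered lengths were 19911, 19845 and 11416 bp in DP nEnd and 5000, 4185 and 5076 bp in Oct4+ replicates 1, 2 and 4. Arhgef25 with Dtx3 and Slc26a10 differed by -1.09 (SE 0.16, limma adjusted p = 0.00137) and Socs3, an inhibitor of JAK and STAT signalling, by -1.0 (SE 0.16, limma adjusted p = 0.00355). The 4 longer in Oct4+ nEnd were Trim71, by 1.11 (SE 0.18, limma adjusted p = 0.00327), Ctbp2 with Fgfr2, Mllt6 and Usp7.

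**Figure D4:**
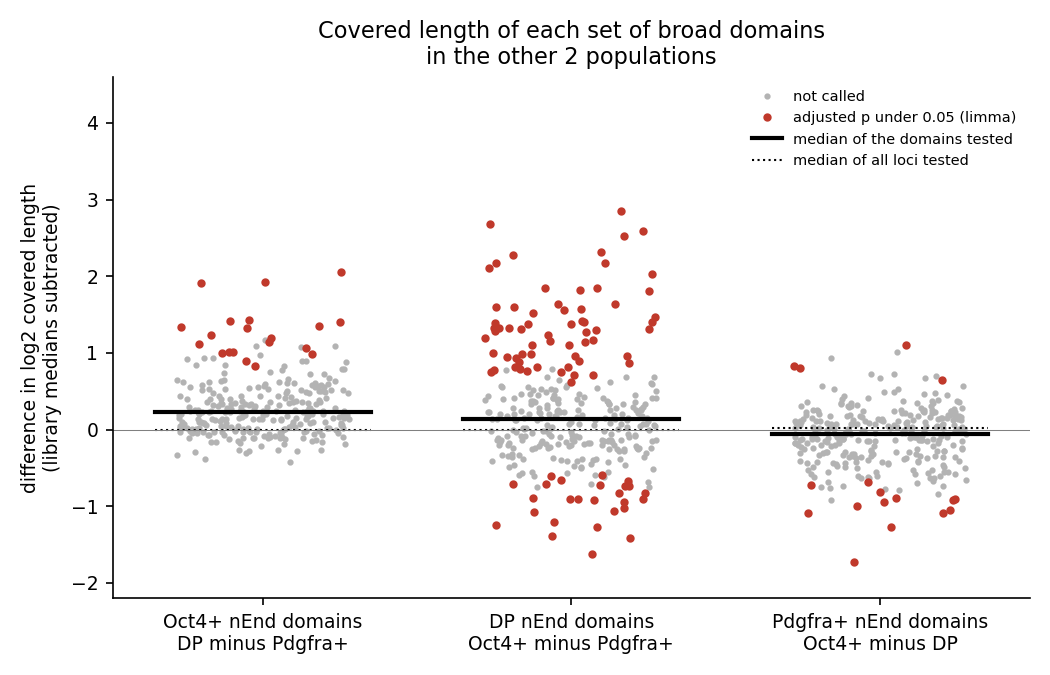
Difference in log2 covered length (y axis, library medians subtracted) of each set of broad domains between the 2 populations that did not choose it (x axis), with 1 point a domain and red for an adjusted p under 0.05 by limma. Solid lines are the medians of the domains tested (0.23, 0.13 and -0.06) and dotted lines those of all loci tested. The red points of the Oct4+ domains all lie above 0.

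The upper end of peak width was compared between the populations over libraries. The 95th percentile of peak width was 8471 ± 1271 bp in Oct4+ nEnd (SD, n = 3, replicates 1, 2 and 4), 7684 ± 751 bp (SD, n = 3) in DP nEnd and 5553 ± 1688 bp in Pdgfra+ nEnd (SD, n = 3). The difference between Oct4+ and DP nEnd had p = 0.3 by an exact permutation test, two-sided. Both differences from Pdgfra+ nEnd had p = 0.2 by the same exact test, and adjustment over the 3 pairs gave 0.3 each. A design of 3 against 3 cannot go below 0.1, so these tests could not have passed 0.05 and do not show that the populations were alike. Taking in Oct4+ replicate 3 gave an exact p of 0.743 towards DP nEnd and of 0.171 towards Pdgfra+ nEnd.

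Broad domains held a single gene less often than other intervals. Exactly 1 protein-coding gene had a TSS in 221 of 393 Oct4+ domains (56.2%, 95% Wilson interval 51.3 to 61.1), 206 of 405 DP domains (50.9%, 46 to 55.7) and 214 of 389 Pdgfra+ domains (55.0%, 50 to 59.9), against 77.4%, 81.5% and 81.5% of the other intervals. More than 1 gene lay in 123, 178 and 159 domains, and the fullest held 6. Per length the order was reversed, with 0.946, 1.32 and 1.48 coding genes per 10 kb of domain against 2.28, 2.23 and 2.59 in the other intervals. The Wilson intervals cover counting error only. In the 5% widest peaks of single libraries, more than 1 gene lay in 29.1%, 22.8%, 23.1% and 29.9% in Oct4+ replicates 1 to 4. The share was 33.0%, 37.9% and 29.6% in DP nEnd and 38.0%, 18.5% and 24.4% in Pdgfra+ replicates 1 to 3. Without Pdgfra+ replicate 1 the single-gene share of the Pdgfra+ domains was 74.3%.

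In multi-gene domains the width was more often made of several peaks. In single-gene domains each of the 3 libraries had 1 unbroken peak in 73.3% of the Oct4+, 90.3% of the DP and 86.4% of the Pdgfra+ domains, and in multi-gene domains in 47.2%, 48.3% and 41.5%. The cluster of Jmjd8, Rhbdl1, Rhot2, Stub1, Wdr24 and Wdr90 in DP nEnd (24892 bp) had peaks of 10752, 24834 and 11989 bp, and that of Cd151, Cracr2b, Pnpla2, Polr2l, Rplp2 and Tspan4 in Pdgfra+ nEnd (32495 bp) had peaks of 32487, 4348 and 5853 bp. Both took their width from 1 library. Cytosolic ribosomal protein genes, which are short and often lie beside other genes, were in a broad domain in 17 of 72 cases in Oct4+ nEnd, 22 of 72 in DP nEnd and 19 of 71 in Pdgfra+ nEnd, against 6.27%, 7.13% and 6.74% of all marked protein-coding genes. In the 5% widest peaks of single libraries they numbered 17, 18, 8 and 14 in Oct4+ nEnd, 18, 24 and 15 in DP nEnd and 20, 2 and 8 in Pdgfra+ nEnd.

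Domains without a protein-coding TSS made up 49 of the Oct4+ set (12.5%), 21 of the DP set (5.19%) and 16 of the Pdgfra+ set (4.11%), against 7.07%, 3.63% and 3.33% of the other intervals. Malat1, a nuclear long noncoding RNA, lay in such a domain of 18587 bp in Oct4+ nEnd, with 18587, 15396, 8345 and 17672 bp in its libraries, 18865, 14055 and 11728 bp in DP nEnd and 12385, 4182 and 7748 bp in Pdgfra+ nEnd. An Oct4+ domain of 18346 bp at chr16:22396395-22414740 held a noncoding transcript start of Etv5, a target of FGF signalling. It had 17709, 11256, 12940 and 16057 bp in Oct4+ nEnd, 0, 12334 and 0 bp in DP nEnd and no peak in Pdgfra+ nEnd. Neat1, the RNA that builds paraspeckles, led with Pisd-ps1 the Pdgfra+ domains of this kind, at 13779, 4503 and 11476 bp.

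**Figure D5:**
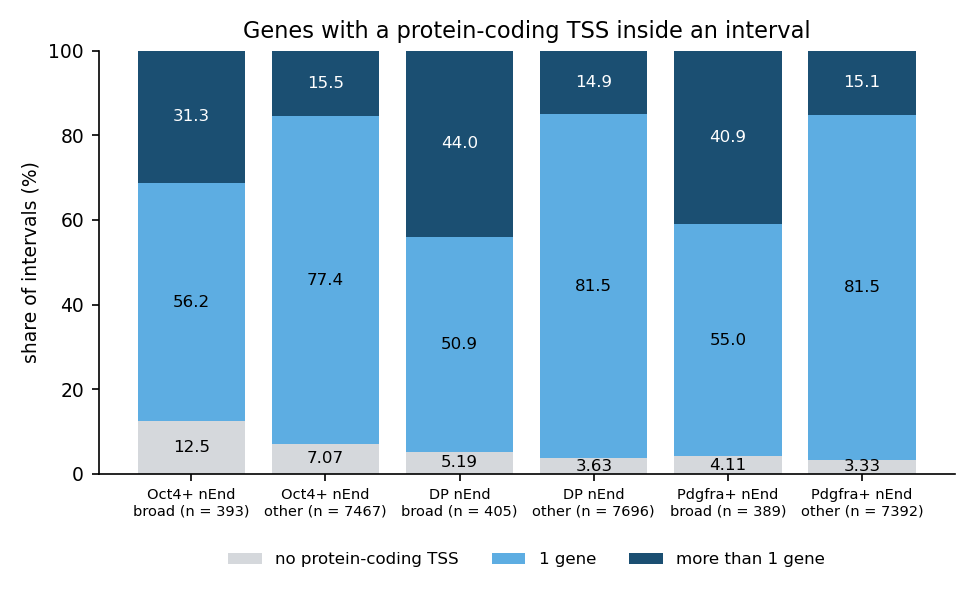
Share of intervals (y axis, percent) with no, 1 or more than 1 gene with a protein-coding TSS inside, for the broad domains and the other intervals of each population (x axis, n in the labels). More than 1 gene lay in 31.3%, 44.0% and 40.9% of the Oct4+, DP and Pdgfra+ domains, against 14.9% to 15.5% of the other intervals.

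Other families added to this picture. All marked protein-coding genes were in a broad domain in 6.27%, 7.13% and 6.74% of cases in Oct4+, DP and Pdgfra+ nEnd. Of the transcription factor families counted, 14 of 80 marked genes were broad in Oct4+ nEnd, 17 of 98 in DP nEnd and 18 of 79 in Pdgfra+ nEnd. Foxm1, Klf2, Klf3, Klf16 and Sox15 were among the Oct4+ ones, and Foxa3, Msx2, Pitx1 and Sox7 among the Pdgfra+ ones. Of feedback and target genes of signalling pathways 6 of 26, 7 of 23 and 5 of 18 were broad. The FGF feedback genes Dusp6 and Spry2 were in the Oct4+ set alone and Spry4 in the Oct4+ and DP sets. Dusp6 had 11293, 6301, 7322 and 8523 bp in Oct4+ nEnd, above the library's own 5% limit in replicates 1 and 3, and Spry2 had 11719, 7725, 7469 and 8368 bp, above it in replicates 1, 2 and 3. Outside Oct4+ nEnd, Spry2 also passed that limit in DP replicate 3 (7258 bp) and Pdgfra+ replicate 1 (7809 bp) and Dusp6 in Pdgfra+ replicate 2 (4189 bp). Socs3, Hes1, Id3 and Ptch1 were in the DP and Pdgfra+ sets and not in the Oct4+ set, whose width limit was the highest. Hes1 was 10276 bp wide in the Oct4+ list, just under that limit, and Socs3, with 5128, 4111, 5224 and 4284 bp in Oct4+ nEnd, was well under it. The genes of the H3K4 methylation machinery were broad in 6 of 15 cases in Oct4+ nEnd (Ash2l, Kdm1a, Kdm5b, Rbbp5, Setd1a and Setd1b), in 2 in DP nEnd (Ash2l and Setd1b) and in 1 in Pdgfra+ nEnd (Setd1b). Of the 6, Rbbp5, Kdm5b and Setd1b passed the library's own 5% limit in all of replicates 1, 2 and 4 and Ash2l in replicates 1 and 4, while the TSS peaks of Setd1a (13876, 3912, 3084 and 4980 bp) and Kdm1a (11873, 5579, 3748 and 7212 bp) did so in replicate 1 alone. Kdm5b, an H3K4 demethylase gene, had peaks of 9255, 7615, 7299 and 14615 bp in Oct4+ nEnd, 3006, 7536 and 3502 bp in DP nEnd and 3919, 2943 and 2421 bp in Pdgfra+ nEnd.

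Single-gene domains, like other single-gene intervals, lay mostly downstream of their first TSS. A median of 77.5%, 72.2% and 71.5% of the domain in Oct4+, DP and Pdgfra+ nEnd was downstream of its most upstream TSS, against 63.5%, 63.5% and 63.6% in the other intervals. Measured from the most downstream TSS the medians were 62.7%, 56.7% and 58.9%, against 58.3%, 58.4% and 58.2%, so the difference turned in DP nEnd. More of the interval lay downstream than upstream of the first TSS in 90.5%, 85.4% and 85% of domains, against 86.2%, 87.0% and 86.8% of other intervals. They covered a median of 36.7%, 43.4% and 35.8% of the gene, against 9.55%, 9.89% and 8.52%. The whole gene was covered in 29, 39 and 36 cases (13.1%, 18.9% and 16.8%), against 3.63%, 3.62% and 2.80% of other single-gene intervals. The median gene length was 29514 bp in Oct4+ nEnd, 19626.5 bp in DP nEnd and 20061.5 bp in Pdgfra+ nEnd, against 29917, 30897 and 30881 bp. The only TSS in the domain was internal to the gene record in 28 of 221 Oct4+, 31 of 206 DP and 19 of 214 Pdgfra+ domains (12.7%, 15% and 8.88%), against 9.61%, 9.33% and 9.69% of other single-gene intervals, and Esrrb, Myo10, Rbpj, Gata4 and Runx1 were among them.

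The promoters inside were close to those of other intervals in CpG content. The ratio of observed to expected CpGs in 2 kb around the TSS had a median of 0.678, 0.673 and 0.676 in the single-gene domains of Oct4+, DP and Pdgfra+ nEnd, against 0.676, 0.672 and 0.674. Over the whole domain it was lower, at 0.351, 0.379 and 0.402 against 0.485, 0.476 and 0.506, and in the central 2 kb lower still, at 0.259, 0.306 and 0.340 against 0.630, 0.632 and 0.645. The motif GGGCGG, searched on both strands from 250 bases before to 50 after the TSS, was in 75.7%, 74.6% and 78.4% of the promoters in single-gene domains, 74.4%, 74.2% and 74.6% of those in other intervals and 35.7% of all promoters. The octamer ATGCAAAT was in 1.33%, 1.46% and 1.92%, against 1.17%, 1.13% and 1.17% of those in other intervals and 1.74% of all. The GATA motif AGATAA was in 3.54%, 5.85% and 2.88%, against 4.20%, 4.36% and 4.30%, and in 11.2% of all.

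The highest coverage of a broad domain mostly stayed at a promoter. It fell within 2 kb of a TSS in 80.3% to 86.8% of the Oct4+ domains over the 4 libraries, 90.3% to 91.1% of the DP domains and 93.1% to 93.6% of the Pdgfra+ domains, against 88.8% to 93.9%, 95.3% to 96.3% and 92.4% to 96.9% of all peaks. Its position agreed within 1 kb over the 3 libraries behind the list in 70.6%, 82.9% and 80.5%. By highest coverage the domains had a median percentile of 74.0 to 79.7 among all peaks of the Oct4+ libraries, 70.6 to 74.2 in DP nEnd and 79.9, 54.2 and 71.2 in Pdgfra+ replicates 1 to 3. In Pdgfra+ replicate 2 the domains were thus near the middle of all peaks in height, and elsewhere in the upper part.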

How the data were processed

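H3K4me3 CUT&Tag was performed on sorted nEnd populations in 10 libraries. Per the labels and the study's methods, the authors demultiplexed with bcl2fastq 2.19.1, aligned to mm10 with Bowtie2 and called peaks with SEACR against IgG in stringent mode. SAMtools 1.12, bedtools 2.26.0 and deepTools are also named in the submitters' processing notes, and the consensus lists were made with DiffBind. The peak files deposited by the authors hold, for each peak, its coordinates, the total signal and the highest coverage. The consensus lists hold coordinates only, and their start was read as 0-based, as in BED. No read counts or depths were used here, and 0 columns of other samples were left out.

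Widths were computed from the coordinates, and genes were assigned by protein-coding TSS inside an interval (GENCODE M21, GRCm38). The members and gene lists were chosen with earlier results of these data known. Covered length per locus was compared with limma 3.58.1 (R 4.3.3) on log2 bp with an adjusted p under 0.05. The fit was tested on simulated data and called 98.5% to 100% of loci changed by 1 on the log2 scale. All simulated loci had the same spread, the median of those measured. The result therefore does not give the power for real loci, which differ in spread. Single values were compared by exact permutation tests (SciPy 1.17.1). Sequence features were read with pysam 0.24.0 from GRCm38, and other steps used Python 3.11.15, pandas 2.3.3, numpy 2.4.6 and matplotlib 3.10.9. Motifs were searched from 250 bases before to 50 after RefSeq promoter starts.

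Genes were named by a rule: the 6 widest domains of each population, the 5 widest broad in all 3, the 5 widest missing and the 5 widest narrow in each other population, the 3 widest without a coding TSS, all members with an Epi, PrE, trophectoderm or fibroblast list gene, the 3 smallest p in each direction, and those beside the width limit, of which fewer may be named. Setd1b, Hes1, Dusp6, Spry2, Kdm5b and the further genes of families and of limma calls were picked after their values were seen. Alternatives changed the share taken as broad (1% or 10%), the overlap, the limit for narrow, the libraries, the centring and the gene annotation. Some members are not reported here.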

Additional observations from a re-analysis of the deposited data

Results flagged for a closer look

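The number of PrE genes in the 5% widest peaks of the 4 Oct4+ libraries was 1, 1, 0 and 1 in replicates 1 to 4. Replicate 3 differed from the other 3, whose value was 1, and its gap of 1 gene made up the whole range, a ratio of 1.0. Of 11 measures tested for a library far from the others, 1 passed the limit. Where 3 libraries tie, any difference in the remaining one gives a ratio of 1.0, so passing was fixed here. The usual rate of about 1 in 20 by chance does not hold for such ties. Replicate 3 also held the fewest peaks, 3477, of which 173 formed its widest 5%.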

How the results depend on the processing

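Depth is unknown and width can depend on it, which was not tested and limits any comparison of widths between libraries. Limma counts and called shares were taken as kept within 1.5 times the first value, and other shares within its 95% Wilson interval. Sequence and position features were kept within 1 SD. Differences in the 95th percentile were kept if sign and significance held. With 1 library left out their smallest possible p was 0.1, so significance could not change. Medians over the domains were counted apart. Leaving out 1 library at a time, 84 values were kept and 24 moved. Under the other alternatives 58 were kept, 39 moved and 1 turned in sign. Of the medians over the domains, 23 kept their sign under the other alternatives and 1 turned. The causes were not tested. Loci called numbered 69 to 135 for Oct4+ against DP nEnd (113 with all libraries), 261 to 424 for Oct4+ against Pdgfra+ nEnd (420) and 14 to 41 for DP against Pdgfra+ nEnd (26) when 1 library was left out, and 45, 217 and 27 without centring. With every locus kept that had a peak in 1 library they numbered 803 (350 longer in Oct4+ and 453 in DP nEnd), 840 and 8, and quantile normalisation gave 17 for the last pair. Without centring the median of all loci moved to -0.05, 0.33 and 0.39, and the split for Oct4+ against Pdgfra+ nEnd from 282 and 138 to 216 and 1. The share of domains called ranged from 3.32% to 6.98% (5.65% with all libraries), 21.7% to 29.8% (28.3%) and 4.21% to 7.39% (7.04%). It was 2.66% and 18% for the first and second pair without centring, 9.84% for the first with the 1% widest, and 4.0%, 22.8% and 4.58% for the third with the 10% widest, the 1% widest and quantile normalisation. With every locus kept it was 8.85%, 21.4% and 2.22%, against 8.82%, 9.20% and 0.0931% of all loci. The domains of the first pair were then called about as often as all loci. Quantile normalisation turned the median of the DP domains from 0.13 to -0.069. Over single omissions these medians ran from -0.07 to -0.04, 0.04 to 0.18 and 0.19 to 0.26. Differences in the 95th percentile of width ranged from 393 to 1522 bp, 2120 to 3801 bp and 1333 to 3014 bp. Loci broad in all 3 populations made up 12.6% of broad loci, 7.79% to 12.8% with 1 library left out, 10.4% with a reciprocal overlap of 50% and 5.85% with the 1% widest. Missing or narrow domains ranged from 10.7% to 17.8% (Oct4+ in DP nEnd), 28.9% to 40.2% (Oct4+ in Pdgfra+), 9.09% to 19.3% (DP in Oct4+), 8.56% to 20.2% (DP in Pdgfra+), 20.7% to 35.2% (Pdgfra+ in Oct4+) and 0.0% to 7.20% (Pdgfra+ in DP nEnd). With the 25th percentile as the limit for narrow, all but the first became 23.7%, 5.68%, 5.93%, 13.9% and 1.29%. Counting as missing only domains without a peak in any library gave 22.1% (Oct4+ in Pdgfra+), 7.16% (DP in Pdgfra+) and 16.7% (Pdgfra+ in Oct4+), and 1 width threshold for all gave 6.54% (DP in Oct4+), 14.0% (Pdgfra+ in Oct4+) and 0.826% (Pdgfra+ in DP nEnd). Single-gene domains ranged from 55.9% to 58.3%, 51.9% to 57.8% and 53.0% to 74.3%, were 37.9%, 28.4% and 34.7% with all annotated genes, 49.4% and 43.5% (Oct4+, DP) with the start of the gene record, and 61.7% and 64.7% (DP, Pdgfra+) with the 10% widest. The share downstream of the most downstream TSS was 62.7%, 56.7% and 58.9%, against 58.3%, 58.4% and 58.2% in other intervals, and the CpG ratio in the central 2 kb was 0.259 and 0.306 (Oct4+, DP). The libraries whose omission moved a value most were Pdgfra+ replicate 1 (loci for DP against Pdgfra+ nEnd 41, Oct4+ in Pdgfra+ 40.2%, DP in Pdgfra+ 20.2%, single-gene 74.3%, broad in all 3 7.79%), Pdgfra+ replicate 3 (261 and 14 loci, 15.6% for DP in Pdgfra+), Oct4+ replicate 1 (69 and 264 loci, 18.5% and 35.2% of DP and Pdgfra+ domains missing or narrow in Oct4+), Oct4+ replicate 2 (19.3% and 32.1%), DP replicate 1 (14 loci, 4.23% of Oct4+ domains) and DP replicate 2 (17 loci, 3.32% of Pdgfra+ domains).

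The labels give the populations the same replicate numbers, but same-numbered libraries did not deviate together (r = -0.074 to 0.119 between deviations from the population means; Oct4+ replicate 3 was not in this check). Not every library correlated best with its own number, as DP replicate 2 had 0.096 with Pdgfra+ replicate 1 and -0.074 with replicate 2. The highest r, 0.119, was that of Oct4+ replicate 1 with Pdgfra+ replicate 1. Such correlations cannot tell whether same-numbered libraries came from 1 culture or sort. The replicate block also needed Oct4+ replicate 3, which shares a number with the others, so pairs with Oct4+ nEnd changed in libraries and loci as well. With the replicate block the loci called were 86 of 3180, 290 of 2938 and 24 of 6140, against 80, 337 and 26 with the same libraries unpaired, and 6.99%, 26.2% and 6.34% of the domains tested were called. The paired difference in the 95th percentile between Oct4+ and DP nEnd, over replicates 1, 2 and 3, was -23.3 bp (exact p of 1.0 after adjustment). Its sign differs from the 788 bp of replicates 1, 2 and 4 through the exchange of replicate 4 for 3, since pairing leaves a mean difference as it is.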
